A study of Drosophila melanogaster with 3 samples.

Results

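The gene hry (FBgn0001168, also written h) encodes the repressor Hairy, and its locus was examined for binding of the Hairy protein itself. The hry gene occupies 3L 8675759 to 8679253 on the plus strand of build dm6. A binding site was counted at hry if its summit, the position of strongest signal in a peak, lay within 20 kb of the transcription start site (TSS). Of the 10233 reproducible summits of the series, 21 met this rule. The strongest stood at and just upstream of the TSS: the promoter peak ranked 58 of 10233 and a peak 3.06 kb upstream ranked 126, and no reproducible summit lay in the transcribed region. Hairy-GFP summits continued past the window on the downstream side, within a stretch with no other protein-coding gene, and were sparser beyond 30 kb.

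Binding was measured by chromatin immunoprecipitation and sequencing (ChIP-seq) with an anti-GFP antibody in whole Drosophila melanogaster. The animals came from strain 15T-GFP, a transgenic line that carries an insertion targeting h and stably makes Hairy with GFP at its C terminus. Males and females were pooled as wandering larvae of the third instar, the stage that precedes pupariation, and the age is recorded as unknown. All samples belonged to this 1 group, with 3 biological replicates, so no comparison between conditions was possible and no test between groups was made. Data of the control were not analysed here, so binding of the fusion and enrichment independent of it cannot be told apart. The labels used here do not say how much of the hry locus the insertion carries. Reads from an inserted copy and from the resident gene therefore cannot be told apart, and this bears on every signal value at hry. Whole larvae mix all tissues, so a strong peak in few cells and a weak peak in many cannot be told apart either.

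Hairy belongs to the HES family of basic helix-loop-helix proteins, represses its targets, and recruits the corepressor Groucho through a short motif at its C terminus. In the embryo hry is a pair-rule gene, and separate enhancers upstream of it drive its individual stripes. In larvae, Hairy limits where sensory bristles form by repressing achaete, and it restrains neuronal differentiation ahead of the furrow of the eye disc. In mouse, the related protein Hes1 represses its own promoter. HES proteins are known to bind class C sites (CACGCG), class B E-boxes (CACGTG) and N-boxes (CACNAG), and these 3 are called HES sites here.

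The sequences below show the promoter, the second strongest summit, the farthest upstream summit, the single class C site, the summit placed most alike in the replicates, and the first summit past the window. The promoter runs from 250 to 1 base before the TSS, and each other stretch is 201 bases centred on a summit. Capitals mark every HES site on either strand, and the genome is the RefSeq Release 6 assembly, whose coordinates are those of dm6.
hry promoter, chr3L:8675509-8675758, plus strand: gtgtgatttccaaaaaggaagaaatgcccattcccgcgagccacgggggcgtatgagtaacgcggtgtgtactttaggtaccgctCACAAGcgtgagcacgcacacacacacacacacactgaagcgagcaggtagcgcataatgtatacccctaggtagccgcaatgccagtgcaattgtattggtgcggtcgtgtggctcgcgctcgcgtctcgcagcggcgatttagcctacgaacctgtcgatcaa
summit 3.06 kb upstream, chr3L:8672600-8672800, plus strand: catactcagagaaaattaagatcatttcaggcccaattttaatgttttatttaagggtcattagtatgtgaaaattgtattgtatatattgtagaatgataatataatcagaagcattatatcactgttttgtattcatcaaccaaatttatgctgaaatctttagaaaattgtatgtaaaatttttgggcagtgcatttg
summit 18.9 kb upstream, chr3L:8656725-8656925, plus strand: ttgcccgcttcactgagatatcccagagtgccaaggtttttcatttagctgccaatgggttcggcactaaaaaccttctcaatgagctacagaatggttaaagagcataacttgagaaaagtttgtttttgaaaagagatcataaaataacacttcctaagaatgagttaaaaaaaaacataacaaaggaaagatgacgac
summit 11.5 kb downstream, chr3L:8687138-8687338, plus strand: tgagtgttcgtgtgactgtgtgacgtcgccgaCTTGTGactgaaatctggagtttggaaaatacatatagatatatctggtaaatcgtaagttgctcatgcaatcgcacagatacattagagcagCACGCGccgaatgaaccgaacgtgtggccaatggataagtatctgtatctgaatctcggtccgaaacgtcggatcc
summit 16.8 kb downstream, chr3L:8692483-8692683, plus strand: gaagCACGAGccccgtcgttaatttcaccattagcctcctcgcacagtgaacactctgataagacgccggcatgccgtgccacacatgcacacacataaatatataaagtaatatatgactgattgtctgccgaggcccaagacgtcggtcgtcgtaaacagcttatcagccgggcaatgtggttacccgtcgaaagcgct
summit 20.9 kb downstream, chr3L:8696578-8696778, plus strand: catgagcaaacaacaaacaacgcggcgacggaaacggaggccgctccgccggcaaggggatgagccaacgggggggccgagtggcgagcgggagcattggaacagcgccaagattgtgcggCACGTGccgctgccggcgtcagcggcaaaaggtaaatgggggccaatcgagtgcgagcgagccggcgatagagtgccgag
The promoter held 1 N-box, CACAAG, whose first base lay 165 bases before the TSS. Among all 13945 coding genes, 23.9% had an N-box in the same 250 bases, 4.09% a class C site and 2.86% a class B E-box. The sequence at the summit 3.06 kb upstream held none of the 3. A match describes the letters in a window and does not show that Hairy contacts them.

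Summits were ranked by the authors' signal value, a score with no stated scale, which served only to order peaks within a list. The promoter summit, 38 bp before the TSS (3L 8675721), had the highest signal value at the locus, 2191. Its peak extended from 672 bp upstream to 371 bp into the 5′ UTR. In the separate lists of 30000 peaks, its signal value was 912.6 in replicate 1, 742.3 in replicate 2 and 567.9 in replicate 3. These gave ranks of 58, 104 and 31, a mean of 64.3 ± 36.9 (SD, n = 3). The replicate with the lowest signal value gave the best rank, so signal values were not compared between lists. The replicate summits lay 3 bp downstream, 25 bp downstream and 17 bp upstream of the reproducible one. Over all coding genes, 27% had a reproducible summit within 500 bp of the gene start, and 40 had a stronger one than hry.

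The upstream stripe enhancers were taken to lie from 500 bp to 14 kb upstream of the TSS, an approximate extent. This region held 6 reproducible summits, and also 6 in the 10233 strongest peaks (the top list) of each of the 3 replicates. Its density was 0.444 summits per kb, below the 0.5 farther upstream and the 0.666 downstream of the gene, where the 6 chromosome arms have 0.0764. The summits were grouped in place. A pair stood 3.06 and 2.86 kb upstream, 1 lay at 2.15 kb, 2 lay at 6.45 and 7.45 kb, and 1 lay at 13.4 kb. No reproducible summit lay in the 5998 bp between the last of these and its neighbour, the widest gap between neighbouring summits at hry.

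The summit 3.06 kb upstream, at 3L 8672700, was the second strongest at the locus, with a signal value of 1649. It ranked 127 in replicate 1, 130 in replicate 2 and 151 in replicate 3. Its ranks differed little, with a mean of 136 ± 13.1 (SD, n = 3), and they did not overlap those of the promoter summit. It shared its peak, 3L 8672206 to 8673147, with the summit 2.86 kb upstream, which had a signal value of 693.3 and replicate ranks of 1004, 1005 and 2273. The 2 summits of this peak differed in base composition, at 26.4% GC for the first and 53.2% for the second in 201 bases. The sequence of the second held 4 copies of GAGAG or its complement, the repeat bound by GAGA factor.

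Farther out in the region, the summit 6.45 kb upstream had a signal value of 551.6 and ranked 1678, 853 and 1306 in the 3 replicates. The summit 7.45 kb upstream had a signal value of 400.1, and its replicate ranks spread more widely, at 3279, 1870 and 691. Its 201 bases had the lowest GC content of the 21 summits, at 23.4%. The summits 2.15 and 13.4 kb upstream were the weakest of the region, with signal values of 138.3 and 123.0. Each was found in only 2 of the 3 top lists, the first missing from that of replicate 3 and the second from that of replicate 2.

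A separate group stood beyond the stripe region, with summits 18.2, 18.7 and 18.9 kb upstream. The outermost, at 3L 8656825, had a signal value of 671.7 and ranked 991, 856 and 775 in replicates 1, 2 and 3. The innermost had 630.2 and ranked 1090, 793 and 858. The middle one was weaker, at 353.6, and its ranks of 6116, 3340 and 1610 varied most. All 3 were found in the top list of each replicate. These summits and the one at 13.4 kb lay closer to the TSS of Pex7, which encodes a peroxisomal import receptor, than to that of hry. Among coding genes, hry had the nearest TSS for the other 17, and starts of noncoding genes were not counted.

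**Figure D1:**
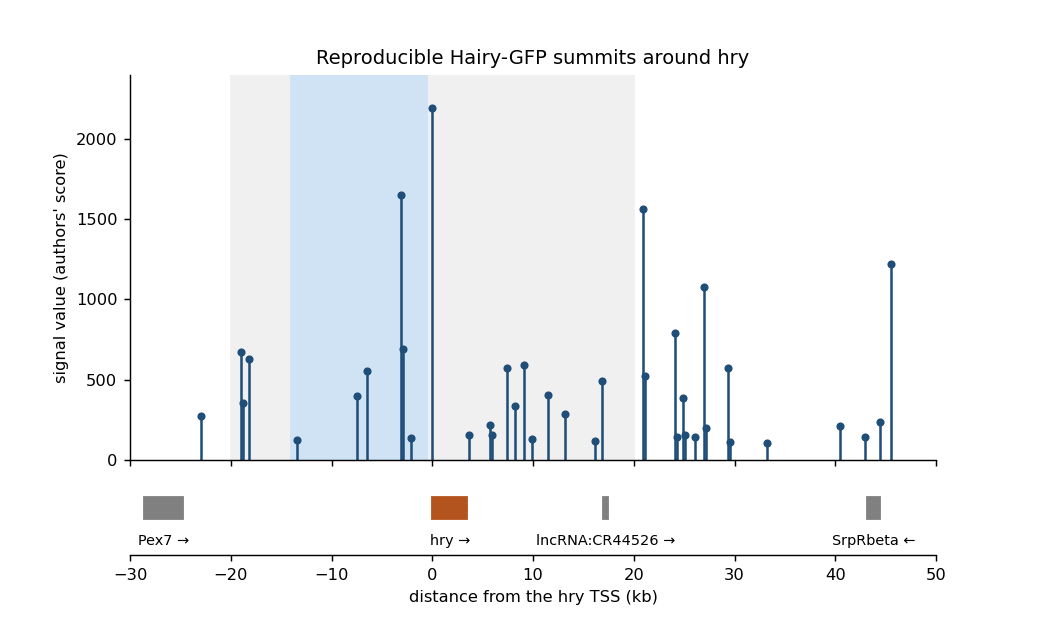
Reproducible Hairy-GFP summits around hry by distance from its TSS in kb (x axis) and the authors' signal value (y axis), with genes drawn to scale below and arrows for their strand. Grey shading marks the 20 kb window, blue the stripe enhancer region, and the tallest line is the promoter summit at 2191.

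The transcribed part of hry from 500 bp after the TSS to the gene end, 2994 bp with its introns and nearly all of its coding sequence, held 0 reproducible summits. The top lists of the 3 replicates held 0 there as well. The longer pooled list, made from all replicates together, held 2. The promoter peak was the exception at the gene's start, since it reached 371 bp into the 5′ UTR, and replicate 3 had 2 top-list summits within 500 bp of the TSS where replicates 1 and 2 had 1. A second annotated TSS lies 196 bp downstream of the first, inside that peak.

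Downstream of hry, 11 reproducible summits lay between 3.67 and 16.8 kb from the TSS, the first of them 172 bp past the gene end. The top lists held 12, 13 and 10 in replicates 1, 2 and 3, a mean of 11.7 ± 1.53 (SD, n = 3). The numbers on the 2 sides were alike, with 10 reproducible summits upstream, the promoter one included. With every summit within 500 bp of the TSS counted as upstream, replicate 1 had 10 top-list summits upstream against 12 downstream. Replicate 2 had 10 against 13, and replicate 3 had 11 against 10. Of the 11 in replicate 3, 1 lay 0.156 kb downstream of the TSS. The downstream summits had a median rank of 3285, and the upstream ones 1097. The strongest lay 9.10 kb downstream, with a signal value of 591.9 and replicate ranks of 842, 1266 and 1841. The summit 7.40 kb downstream had 575.8 and ranked 1094, 1275 and 1046.

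The outermost downstream summit, at 3L 8692583, had a signal value of 494.4 and ranked 1358, 1396 and 1101. The replicate summits were placed within 1 bp of it, and it lay just before lncRNA:CR44526, which starts 16.9 kb downstream of the hry TSS. Some other summits of this side were found in fewer replicates or at more widely spread ranks. The summit 9.89 kb downstream, at 3L 8685653 with a signal value of 131.0, lay inside a top-list peak of replicate 3 only. The top lists of replicates 1 and 2 had summits close by, at 3L 8685777 (rank 9759) and 3L 8685772 (rank 5792). Their peaks did not cover the reproducible summit. The summit 8.20 kb downstream ranked 1875 in replicate 1 and 3275 in replicate 3, but 13745 in replicate 2. Replicate 2 also had a stronger summit 8.09 kb downstream, at rank 4206. For the summit 5.92 kb downstream, the nearest summits of replicates 1, 2 and 3 ranked 6664, 20210 and 6516. The one in replicate 3 was also the nearest to the summit 5.72 kb downstream. In replicate 2 the summit 5.92 kb downstream also lay inside a stronger peak, at rank 7015, and it was found in all 3 top lists.

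**Figure D2:**
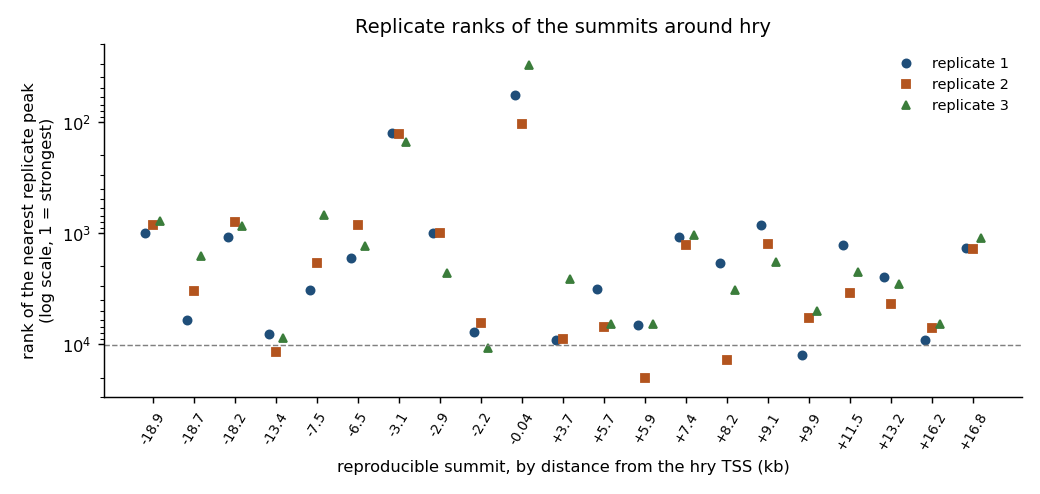
Rank of the replicate summit nearest to each of the 21 reproducible summits at hry (y axis, log scale, strongest at the top), ordered by distance from the TSS in kb (x axis), with 1 symbol per replicate. The dashed line marks the end of the top list at rank 10233; the promoter summit, at ranks 31 to 104, and that at 3.06 kb upstream, at 127 to 151, stand above all others.

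All 21 summits were intergenic, and 0 lay in an exon, intron or UTR of a coding gene. Their median rank was 2011, against 5117 for the list, and 5 ranked 1000 or better. Of the 21, 15 exceeded the median signal value of the list, which 50% of all peaks do. At the highest −log10 q-value of the list, 4.21, stood 18 of the 21, against 79.8% of all peaks. A summit was counted as found in a replicate if it lay inside a peak of its top list. By this measure 17 of 21, or 81.0%, were found in all 3 replicates, against 70.4% of the whole list. As the same replicates gave rise to the reproducible list, this share describes the locus and is no independent check. The nearest replicate summit lay a median of 22 bp from the reproducible one, and 49 of 63 such offsets were 50 bp or less.

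The pooled list held 42 summits within 20 kb, of which 21, or 50%, were in the reproducible list (exact 95% interval 34.2 to 65.8%). Over the whole pooled list that share was 34.1%. Intervals here cover counting error only, and neighbouring peaks are not independent. The other 21 pooled summits had signal values from 24.7 to 104.7 and pooled ranks from 10292 to 28939. The 21 reproducible ones had the same rank in both lists, each better than these. The share at hry thus restates rank and is no separate check. The full lists of replicates 1, 2 and 3 held 42, 40 and 44 summits in the window.

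The search for HES sites took both strands and 100 bp to each side of a summit. N-boxes were found at 5 of 21 summits (23.8%, exact 95% interval 8.22 to 47.2%), against 20.3% of all reproducible summits. A class C site was found at 1 summit, against 6.24%, and that summit also had an N-box. Class B E-boxes were found at 0 of 21, which allows a share of up to 16.1%, against 2.11% of the list. Together, 5 of 21 summits had a HES site, and 26.4% of the list did, so the share at hry was near the background.

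The class C site, CACGCG, lay 25 bp from the summit 11.5 kb downstream, at 3L 8687263 to 8687268. That summit had a signal value of 405.3 and ranked 1270, 3492 and 2251 in the replicates. The other N-boxes lay at the summits 5.72, 5.92, 16.2 and 16.8 kb downstream. At the promoter, the N-box printed above lay more than 100 bp from the summit and was not counted. All 5 summits with a site were downstream, 5 of 11, and 0 of the 10 upstream summits, the promoter included, had one. This division by side was noticed in the data and was not tested. In the top lists of replicates 1, 2 and 3, the downstream counts were 6 of 12, 8 of 13 and 5 of 10. The upstream counts, with every summit within 500 bp of the TSS included, were 1 of 10, 0 of 10 and 1 of 11. Within 200 bp of the reproducible summits, the counts were 7 of 11 downstream and 4 of 10 upstream, with 47.6% for the list.

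Median GC content around the downstream summits was 47.8%, against 37.1% upstream and 37.3% over the list, and its part in the count of sites was not tested. The class A E-box CAGCTG, bound by proneural proteins, was at 2 of 21 summits, against 9.47% of the list. GAGAG was at 3 summits, including the promoter, against 26.6%. The motif ACACTG was at 2, against 16.6%. The core promoter elements DRE (TATCGATA) and Ohler 1 (GGTCACAC) were at 0 of 21, against 3% and 2.12%.

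The 21 summits at hry were set beside the same count at each of 13945 coding genes. The median gene had 4, and 85.6% had at least 1. Only 10 genes, hry included, had 21 or more, or 0.0717%, and genes near each other share summits. The replicate top lists gave hry 22, 23 and 21 summits, a mean of 22 ± 1 (SD, n = 3), against a median of 4 in each. In these lists 2, 6 and 14 genes had at least as many as hry. The window of hry contains no other coding gene start, where the median gene shares its window with 7. Among the 453 genes without another start in the window, the median was 1 summit, and 3 genes had 21 or more.

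**Figure D3:**
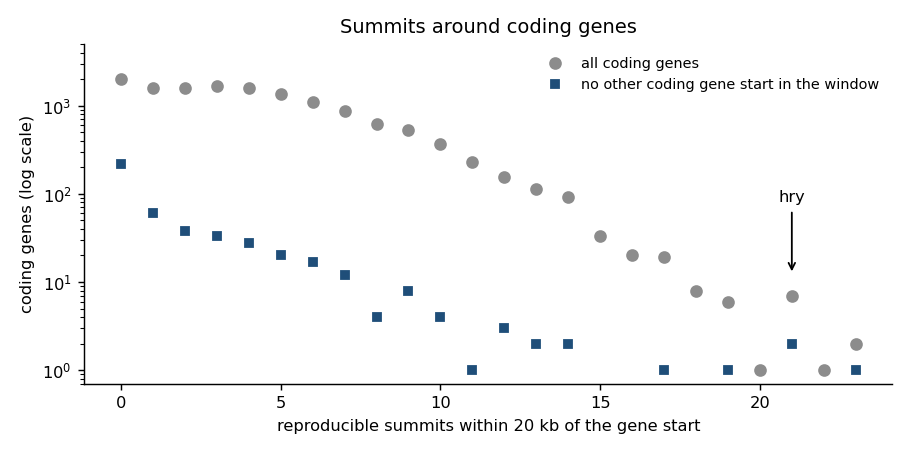
Number of coding genes (y axis, log scale) by their count of reproducible summits within 20 kb of the gene start (x axis), for all coding genes (grey circles) and for those with no other coding gene start in the window (blue squares). The arrow marks hry, at 21 summits, where the median gene has 4.

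Taken 1 per 40 kb, the genes with more summits than hry were aop, which encodes the ETS repressor Yan, and tara, with 23 each. The genes CG5151, VhaAC39-2 and heca had 21 as well, and Egm, CG13898, CG31960 and CG42538 had 18 to 20. In the top lists, tara had 23, 26 and 24 summits, aop 20, 24 and 20, and heca 18, 21 and 19. The range of hry, 21 to 23, met or overlapped each of these, so hry was not separated from tara, aop or heca beyond the replicate spread. Nor was hry separated from unk, next to VhaAC39-2, with 21, 18 and 18. The counts of tara did not overlap those of heca or unk. Against 2191 at hry, the promoter summit within 500 bp of the start had a signal value of 201.7 at aop, 222.4 at CG5151, 155.3 at unk and 106.6 at heca, and tara and VhaAC39-2 had none. Away from their starts these genes had stronger summits. The strongest in the window had 1714 at unk and VhaAC39-2, 1477 at tara, 1334 at heca, 1193 at aop and 524.9 at CG5151.

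Of the 13 HES-family genes, hry had the most summits, and the others had a median of 10. E(spl)m3-HLH followed with 15 and top-list counts of 14, 12 and 17, which did not overlap those of hry. The 7 E(spl) genes, Notch targets that encode repressors, had 9 to 15 each, but they lie side by side and share summits. Among the single genes, Sidpn had 10, Hey 6, dpn and cwo 5 each, and Hesr 0. A promoter summit was present at 6 of the 13, among them hry, at 2191, E(spl)m7-HLH, at 740.4, and cwo, at 137.4. Of the corepressor genes, gro had 7 summits with one of 483.4 at its promoter, Sirt1 had 5 with one of 286.4, and CtBP had 5 with none there.

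**Figure D4:**
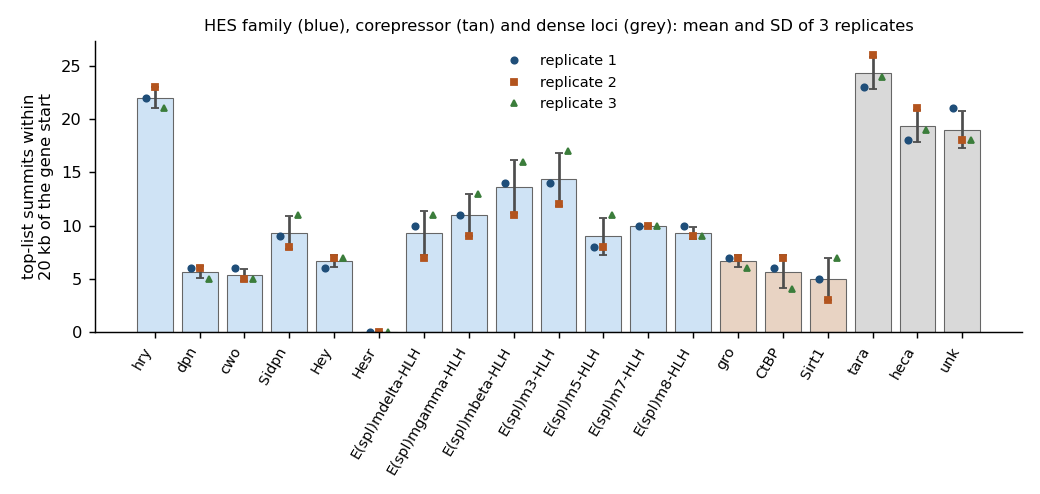
Top-list summits within 20 kb of the gene start (y axis) for HES-family genes, corepressor genes and dense loci (x axis), with bars at the mean of 3 replicates, error bars of 1 SD and 1 symbol per replicate. The points of hry lie at 21 to 23, above those of every other HES-family gene shown.

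To find genes with a similar arrangement, the signal in 40 bins of 1 kb, oriented by strand, was correlated with that at hry on the log2(1 + signal value) scale. The 5 most alike, 1 per 40 kb, were Rnf146 (Pearson r = 0.58), fh (0.57), CG8149 (0.56), CG3788 (0.55) and CG31643 (0.54). Over the 11931 genes with a profile the median was 0.02 and the 99th percentile 0.40. Their order did not hold in the replicates, where the mean r was 0.46 ± 0.11 (SD, n = 3) for Rnf146, the lowest of the 5, and 0.57 ± 0.05 for CG8149, the highest. These genes held 5 to 10 summits in the window, fewer than hry. The bins of a gene share its locus, so r is a description only.

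The 20 kb rule ended inside a longer run of binding. Just inside it lay the summits 18.9 kb upstream and 16.8 kb downstream, at 671.7 and 494.4. Just outside lay a summit 22.9 kb upstream, at 275.0, and one 20.9 kb downstream, at 1564. The latter, at 3L 8696678, ranked 138 in the list, and its sequence, printed above, held a class B E-box, CACGTG, which no summit within 20 kb did. The stretch free of other coding genes runs from the end of Pex7 to SrpRbeta, which encodes a subunit of the signal recognition particle receptor, and spans 67.937 kb. It was examined after the counts were seen. It held 36 reproducible summits, 0.530 per kb, of which 11 lay upstream of the TSS and 25 downstream of the gene. The top lists held 34, 36 and 38 there, a mean of 36 ± 2 (SD, n = 3). The reproducible summits were unevenly spread, with 11 from 20 to 30 kb downstream and 1 from 30 to 40 kb.

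**Figure D5:**
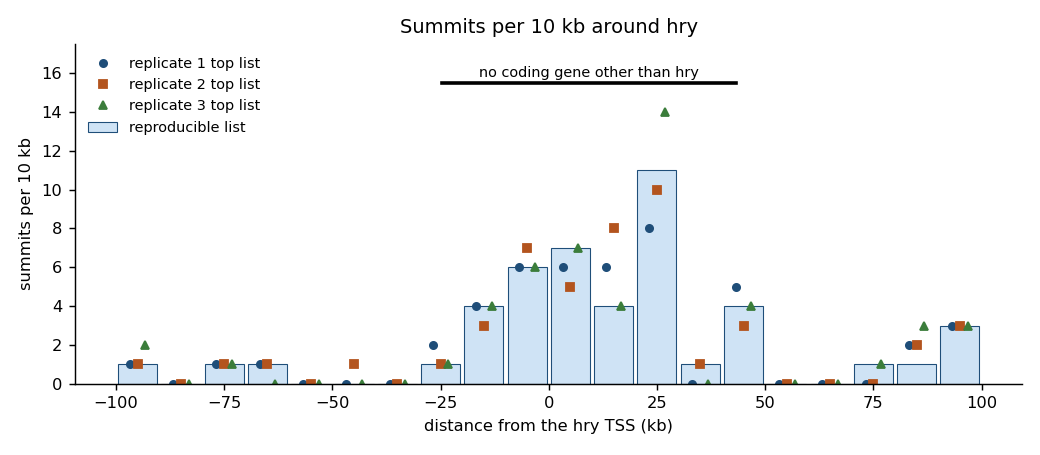
Summits per 10 kb (y axis) by distance from the hry TSS in kb (x axis), with bars for the reproducible list, 1 symbol per replicate top list and a line over the stretch with no other coding gene. The bin from 20 to 30 kb downstream is the highest, with 11 reproducible summits and 8, 10 and 14 in the replicates.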

How the data were processed

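Anti-GFP ChIP-seq peak lists of 3 biological replicates of 1 group were used. Chromatin was sonicated, per the labels. The authors deposited dm6 lists of 30000 peaks for each replicate and for the pooled replicates, and a reproducible list of 10233. Per the deposited notes, replicate lists were made per sample with 1 control, and the reproducible list from these and the pooled list. The deposited signal value is a score whose scale is not stated, and the authors also gave a −log10 q-value. The names of aligner and caller and the cutoff of the reproducible list were not given in the sources used here. Read depth is unknown. The dm3 lists were not used.

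Summits were counted with Python 3.11.15, pandas 2.3.3 and scipy 1.17.1, against Ensembl release 115 genes on 6 arms and the RefSeq genome. The top list was the 10233 strongest peaks of a replicate, the length of the reproducible list. Intervals are exact binomial (95%). Scripts were checked on simulated data. Genes named were hry and its neighbours, the HES-family and corepressor genes, tara, heca and unk, the 10 genes with most summits and the 5 with the most similar profile. Members and lists were chosen with earlier results of these data known. Alternatives covered window, list, overlap rule, list length, motif window and each replicate left out. The labels say no more of the replicates than that they are biological, so part of their spread may be technical.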

Additional observations from a re-analysis of the deposited data

How the results depend on the processing

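Of 41 alternatives to 8 results, 30 left the value within 1.5 times the count or within its own spread or interval, and 11 moved it further. The count of 21 summits followed the window, with 13 within 10 kb, 5 within 5 kb, 34 within 40 kb and, chosen after seeing the data, 36 in the coding-free stretch. The 17 summits found in all 3 replicates became 9 when peaks had to cover each other reciprocally over at least 50% of their lengths. The mean of 22 top-list summits was 15 with the 5000 strongest peaks and 42 with the full lists. The share of genes with as many summits as hry, 0.0717%, was 0.318% with 1 gene per 40 kb. Genes with the most summits were kept first in that spacing, which favours a higher share. Among genes with no other coding start in the window, chosen after seeing the data, the share was 0.662%. It fell to 0.0359% within 10 kb. The 5 summits with a HES site became 11 within 200 bp, and the top list of replicate 2 had 8. Leaving out each replicate gave 17 to 19 summits found in the rest, mean counts of 21.5 to 22.5 and mean promoter ranks of 44.5 to 81.0. The stripe region count of 6 was 5 with its outer edge at 10 kb and 9 at 20 kb, and 4 of the 6 exceeded the list median. No paired analysis was possible because there is 1 group. Read depth is unknown, so how far it limits weak summits was not analysed here.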

Other observations

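The stretch from 20 kb downstream of the hry TSS to SrpRbeta held 14 reproducible summits, of which 10 were found in all 3 top lists. Their median rank was 5125.5. After the summit 20.9 kb downstream, the next strongest stood 27.0 kb downstream, at rank 340 and a signal value of 1080. The summit 24.1 kb downstream followed, at rank 644 and 792.3, in a peak from 3L 8699594 to 8701058 that held 4 summits. A HES site lay within 100 bp of 8 of the 14, where 26.4% of the whole list has one. Median GC content around the 14 was 46.0%, against 37.3% over the list, and its part in this share was not tested. Both a class C site and a class B E-box lay at the summit 29.5 kb downstream, one of the weakest, with a signal value of 113.4. This stretch was chosen after its values were seen, and no test was made. Outside the coding-free stretch, the bins from 30 to 60 kb upstream of the TSS held 0 reproducible summits. The bins from 50 to 70 kb downstream also held 0.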
